A study of Mus musculus with 15 samples.

Results

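The regions described here are goblet cell H3K4me2 peaks that overlapped an H3K4me2 peak of Lgr5+ stem cells by at least 1 bp and overlapped no H3K4me2 peak of enterocytes. They were selected on the presence and absence of peaks in these 3 lists, and 1687 of the 86922 goblet peaks met the rule (1.94%). They were 4.60% of the 36661 goblet peaks with a stem cell peak and 7.84% of the 21531 goblet peaks without an enterocyte peak. Presence in stem cells, presence in goblet cells and absence in enterocytes are therefore set by the choice and are not results. The values that the choice did not use came from 9 progenitor lists, of H3K4me2 (4 lists), H3K27ac (2), sites hypersensitive to DNase I (DHS, 2) and the transcription factor ATOH1 (1).

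Stem cells at the base of the intestinal crypt give rise to progenitors that become either absorptive enterocytes or secretory cells, of which mucus-producing goblet cells are the most abundant. Notch signalling between neighbouring cells makes this choice by lateral inhibition. Cells that escape Notch, whose signal is passed on by the DNA-binding protein RBPJ, express ATOH1, the basic helix-loop-helix transcription factor required for the secretory lineage. H3K4me2 is a histone modification of promoters and enhancers, active or poised. H3K27ac marks active ones, and DHS are stretches of open chromatin where DNase I cuts.

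All libraries came from C57BL/6 mice. Goblet cells (GOB, 1 H3K4me2 library) were taken from villi of Rbpj-/- mice. The crypt populations were stem cells (ISC, 1 H3K4me2 library), sorted for green fluorescent protein from Lgr5-eGFP-Cre mice, and the secretory (Sec-Pro) and enterocyte (Ent-Pro) progenitors. Sec-Pro had 1 H3K4me2 library from Rbpj-/- mice, 1 H3K4me2 library after treatment with the Notch inhibitor dibenzazepine (DBZ), and 1 library each of H3K27ac, DHS and ATOH1, the last made with an antibody against FLAG. The labels do not say which of the preparations gave the H3K27ac, DHS and ATOH1 libraries. Ent-Pro (2 H3K4me2 libraries, 1 of H3K27ac and 1 of DHS) and enterocytes (ENT, 1 H3K4me2 library) were taken from Atoh1-/- mice, which have no secretory cells. Sec-Pro were enriched by blocking Notch and not sorted. The labels give neither the ages of the mice, the promoters that drove the deletions, nor whether animals were pooled. Goblet cells and enterocytes thus differ in lineage and in genotype, and these cannot be told apart. The lists hold no gene names and no annotation of their build, mm9, was used here, so the cell types could not be checked against marker genes.

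The lists held 15240 (ATOH1) to 92279 (H3K4me2 in DBZ-treated Sec-Pro) peaks. The number of reads behind a list is unknown, so a region without a peak in ENT is not shown to lack H3K4me2 there. The shortest peak was 146 bp in the GOB, ISC, ENT, DBZ-treated Sec-Pro and Ent-Pro replicate 1 lists and 200 bp in the Rbpj-/- Sec-Pro, Ent-Pro replicate 2, H3K27ac and DHS lists. The reason is not given, and values are set beside each other within each kind of list where this matters. Brackets give 95% intervals (Wilson for shares, Newcombe for differences of shares), which cover counting error only. Peaks of 1 library are not replicates, so no p-value was computed over peaks.

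The regions were short and weak within the goblet list. Their median width was 238 bp (10th to 90th percentile 153 to 559.8 bp), against 985 bp for the 34974 goblet peaks that overlapped both ISC and ENT peaks and 371 bp for all goblet peaks. The authors' score had a median of 7.16 in the 1687 regions, 50.3 in the goblet peaks shared with ISC and ENT and 11.5 in all goblet peaks. By rank, 339 of the 1687 regions (20.1%) lay in the upper 50% of the goblet list. On the stem cell side the strongest overlapping peak had a median score percentile of 32.6 in the ISC list, where 100 is the highest score. A goblet region and the stem cell list shared a median of 150 bp, and the median part of a region covered was 56.6%. These widths, scores and overlaps belong to the lists that chose the regions.

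Enterocyte peaks lay close to many of the regions, as they did to other goblet peaks that they did not overlap. One was found within 1 kb of 819 of the 1687 regions (48.5%) and within 10 kb of 1346 (79.8%), against 43.7% and 82.0% of the goblet peaks that overlapped neither ISC nor ENT peaks. The 1687 regions were touched by 1739 of the 68407 stem cell peaks, and 273 of these stem cell peaks (15.7%) also reached an enterocyte peak elsewhere along their length. Of the regions, 1411 (83.6%) had stem cell peaks that were all clear of enterocyte peaks. Around the border of the rule, 63 regions had an enterocyte peak within 50 bp, with a median score of 5.60, and 71 goblet peaks with ISC were left out for 1 to 50 bp of overlap with ENT, with a median score of 6.09. On the stem cell side, 209 regions shared 1 to 50 bp with ISC, and 210 goblet peaks without ENT had a stem cell peak within 50 bp that did not reach them.

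For comparison, 3 other classes of peaks are given beside the 1687 regions. They are the 34974 goblet peaks with both ISC and ENT, the 19844 goblet peaks with neither, and the 4278 enterocyte peaks with ISC and without GOB, which are the mirror image of the regions in the other lineage. The share over all 86922 goblet peaks is given as background.

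In the 146-bp lists most of the regions carried H3K4me2 in progenitors of either lineage, and in the 200-bp lists fewer than 50% did. A peak was found at 763 of the 1687 regions in Rbpj-/- Sec-Pro (45.2% [42.9 to 47.6], against 56.4% of all goblet peaks) and at 1499 in DBZ-treated Sec-Pro (88.9% [87.3 to 90.3], against 67.5%). In Ent-Pro a peak was found at 1405 regions in replicate 1 (83.3% [81.4 to 85.0], against 68.1%) and at 773 in replicate 2 (45.8% [43.5 to 48.2], against 56.9%). Over peaks of all widths, the libraries thus separated by their shortest peak. They separated by list size as well. DBZ-treated Sec-Pro and Ent-Pro replicate 1 had 92279 and 85881 peaks, and Rbpj-/- Sec-Pro and Ent-Pro replicate 2 had 63293 and 64138. In either lineage the 146-bp lists lay above and the 200-bp lists below the background of all goblet peaks. Among narrow peaks the 200-bp lists lay above this background. Under 200 bp, Rbpj-/- Sec-Pro marked 44.9% of the regions and 23.6% of all goblet peaks, and Ent-Pro replicate 2 marked 44.4% and 25.0%. At 200 to 399 bp these shares were 44.4% and 39.1%, and 45.8% and 40.4%. Among wider peaks both lists lay below it. Whether the separation of the lists reflects depth or peak calling was not tested.

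**Figure D1:**
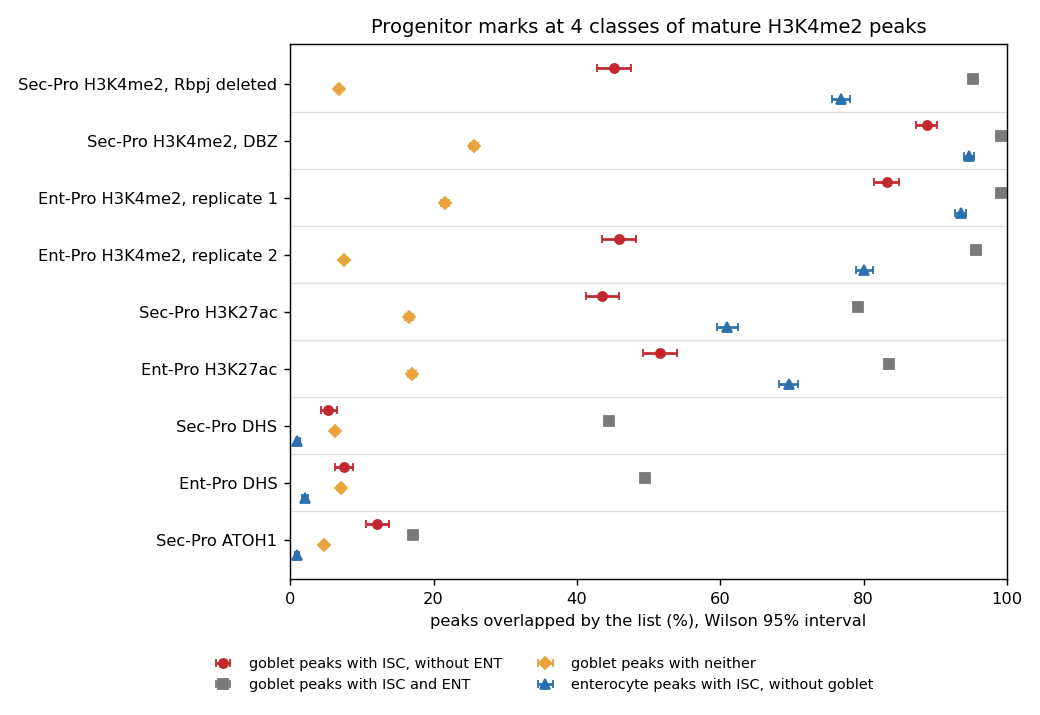
Share of peaks in 4 classes (x axis, %) overlapped by each of the 9 progenitor lists (y axis). Points are shares and bars Wilson 95% intervals, which are narrower than the symbol for the larger classes. The goblet regions with ISC and without ENT (red circles) reach 88.9% in DBZ-treated Sec-Pro H3K4me2, 5.33% in Sec-Pro DHS and 12.1% in ATOH1.

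Sec-Pro and Ent-Pro differed in the share of regions they marked by less than the spread between their libraries. The mean share was 67.0% ± 30.8 in Sec-Pro and 64.6% ± 26.5 in Ent-Pro (SD, n = 2 libraries each). The difference of 2.49 points gave p = 1 in an exact two-sided permutation test over the 6 assignments of the libraries, of which the smallest possible p is 0.333. Within the 146-bp lists Sec-Pro exceeded Ent-Pro by 5.57 points, and within the 200-bp lists the difference was -0.593 points. The difference within the 146-bp lists was -0.578 points over all goblet peaks, 4.04 points over goblet peaks with neither ISC nor ENT and 1.24 points over the enterocyte mirror class. The strength of the progenitor peaks followed the kind of list as well. Where a region was marked, the median score percentile was 34.2 in Rbpj-/- Sec-Pro, 58.1 in DBZ-treated Sec-Pro, 52.3 in Ent-Pro replicate 1 and 37.4 in Ent-Pro replicate 2 (Sec-Pro minus Ent-Pro 1.31, exact two-sided permutation p = 1).

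Combined over the 4 lists, 531 regions (31.5% [29.3 to 33.7]) had H3K4me2 in every progenitor library, against 49.7% of all goblet peaks. Another 416 (24.7%, against 5.68% of all goblet peaks) were marked in both 146-bp lists and neither 200-bp list. No progenitor list marked 103 regions (6.11% [5.06 to 7.35], against 25.5%). Both Sec-Pro libraries marked 743 regions (44.0%, against 53.9% of all goblet peaks) and both Ent-Pro libraries 744 (44.1%, against 55.3%). Regions split cleanly by lineage were few. Peaks of both Sec-Pro libraries without a peak of either Ent-Pro library marked 20 regions (1.19% [0.769 to 1.82]), against 0.428% of all goblet peaks, and the opposite at 5 regions (0.296% [0.127 to 0.692]), against 0.742%. DBZ-treated Sec-Pro alone marked 125 regions (7.41%, against 3.63% of all goblet peaks) and Ent-Pro replicate 1 alone marked 53 (3.14%, against 3.08%).

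**Figure D2:**
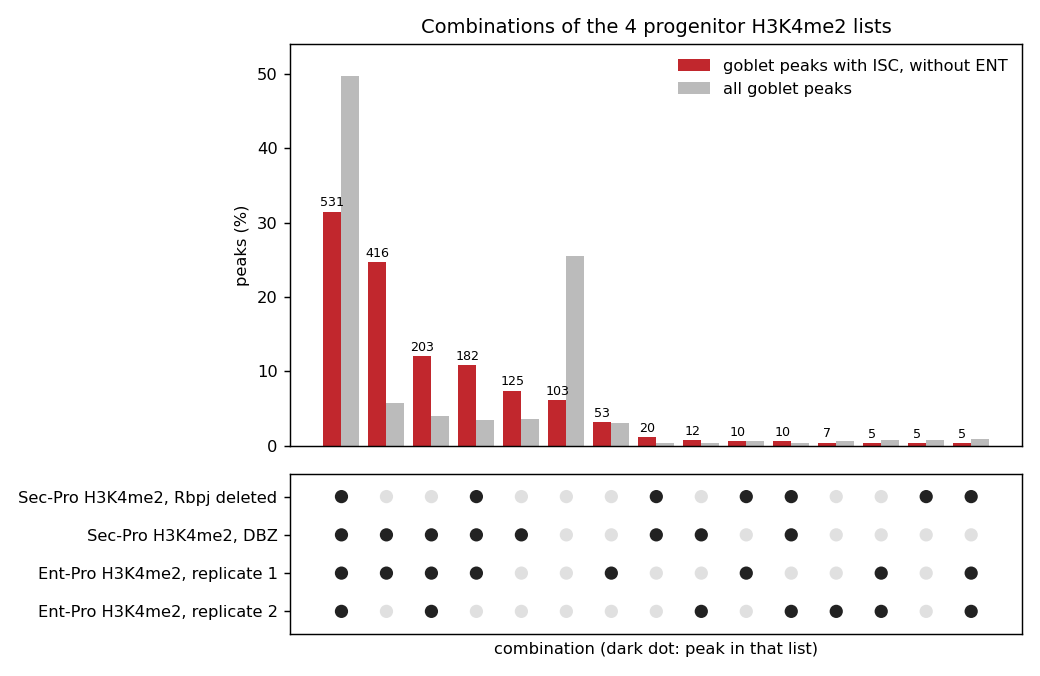
Combinations of the 4 progenitor H3K4me2 lists (lower panel, a dark dot is a peak in that list) and the share of peaks with each (upper panel, y axis in %). Red bars are the 1687 regions with their number above, grey bars all 86922 goblet peaks. The combination of all 4 lists holds 531 regions and that of the 146-bp lists alone 416.

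The regions stood between the other goblet classes in progenitor H3K4me2. In all 4 libraries the mark was found at 31.5% of the regions, 93.0% of goblet peaks with ISC and ENT and 3.04% of goblet peaks with neither. The regions minus the class with neither came to 28.4 points [26.2 to 30.7]. The enterocyte mirror class was marked in all 4 libraries at 69.1% of its peaks, and the regions minus this class came to -37.6 points [-40.2 to -35.0]. These shares moved with peak width in some classes, and width was therefore held within bands. Among peaks of 200 to 399 bp, both kinds of list kept the order. Rbpj-/- Sec-Pro marked 44.4% of the regions, 76.6% of the mirror class and 6.98% of goblet peaks with neither, and DBZ-treated Sec-Pro marked 88.8%, 94.8% and 27.1% in the same order.

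H3K27ac, whose lists are both of the 200-bp kind, was found at a share of the regions close to that of the H3K4me2 list of this kind in Sec-Pro (45.2%) and at a larger share than it in Ent-Pro (45.8%). The Sec-Pro H3K27ac list covered 735 regions (43.6% [41.2 to 45.9], against 55.0% of all goblet peaks) and the Ent-Pro list 870 (51.6% [49.2 to 53.9], against 56.9%). These backgrounds are over peaks of all widths. Under 200 bp, Sec-Pro H3K27ac lay on 38.6% of the regions and 31.4% of all goblet peaks. Ent-Pro H3K27ac lay on 48.1% and 32.96%. At 200 to 399 bp these shares were 43.6% and 43.7%, and 52.35% and 45.5%. Among wider peaks the regions lay below the background in both lists. Both lists covered 642 regions (38.1%, against 50.1% of all goblet peaks) and neither covered 724 (42.9%, against 38.2%). H3K27ac in Sec-Pro alone was found at 93 regions (5.51% [4.52 to 6.71], against 4.87% of all goblet peaks) and in Ent-Pro alone at 228 (13.5% [12.0 to 15.2], against 6.82%). Of the regions with H3K27ac in 1 progenitor, Sec-Pro thus held 29.0% [24.3 to 34.2]. The same share was 22.5% in goblet peaks with ISC and ENT, 48.2% in goblet peaks with neither, 24.7% [21.7 to 28.0] in the enterocyte mirror class and 41.7% in all goblet peaks. With 1 library each, a difference between the progenitors cannot be told apart from one between libraries. H3K27ac went together with H3K4me2 in part. In the 531 regions with H3K4me2 in all 4 progenitor libraries, both H3K27ac lists covered 240 (45.2%) and neither covered 185 (34.8%). In the 103 regions without progenitor H3K4me2 the counts were 29 (28.2%) and 55 (53.4%). Median widths of these groups were 238 and 207 bp, and median goblet score percentiles 32.85 and 20.1. The same split was not made over all goblet peaks, so it is not shown to be particular to the regions.

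Open chromatin was rare at the regions, as it was at other narrow goblet peaks. DHS were found at 90 regions in Sec-Pro (5.33% [4.36 to 6.51], against 22.0% of all goblet peaks) and at 126 in Ent-Pro (7.47% [6.31 to 8.82], against 25.2%). In both they were found at 76 (4.51%, against 21.3%), in Sec-Pro alone at 14 (0.830%, against 0.685%) and in Ent-Pro alone at 50 (2.96%, against 3.96%). Goblet peaks with ISC and ENT held Sec-Pro DHS at 44.5%, and the regions minus this class came to -39.1 points [-40.2 to -37.9]. Goblet peaks with neither held them at 6.27%, and the regions minus this class came to -0.934 points [-1.97 to 0.289], an interval that includes 0. When 50% of a peak had to be covered, Sec-Pro DHS lay on 2.75% of the regions and 4.62% of goblet peaks with neither, and with peaks within 1 kb merged on 8.84% and 9.91%. The enterocyte mirror class held Sec-Pro DHS at 1.01%, and the regions minus this class came to 4.33 points [3.30 to 5.54]. Width bears on these shares. Among peaks of 800 bp or more, Sec-Pro DHS were found at 18.1% of 72 regions, 69.0% of goblet peaks with ISC and ENT and 20.7% of goblet peaks with neither, while among peaks under 200 bp the shares were 4.24%, 1.33% and 4.34%. Among peaks of 200 to 399 bp they were 4.05%, 3.98% and 6.44%. Over all goblet peaks the share was 3.33% under 200 bp, 4.85% at 200 to 399 bp and 62.1% at 800 bp or more. At 400 to 799 bp it was 13.8%, against 8.11% of the regions. The regions thus lay close to this background among narrow peaks and below it among wider ones. Where present, the DHS were of middling strength, with a median score percentile of 43.7 in the Sec-Pro list on the regions and 73.0 on goblet peaks with ISC and ENT.

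ATOH1 binding was found at 204 regions, and within each of the 4 bands of width its share was higher in the regions than in the other 3 classes. An ATOH1 peak overlapped 204 of the 1687 regions (12.1% [10.6 to 13.7]), against 9.46% of all goblet peaks. The share was 17.1% in goblet peaks with ISC and ENT, 4.75% in goblet peaks with neither and 0.935% in the enterocyte mirror class. The regions minus the class with neither came to 7.35 points [5.84 to 9.01] and the regions minus the mirror class to 11.2 points [9.65 to 12.8]. Against the class with ISC and ENT the difference was -4.97 points [-6.50 to -3.29] over peaks of all widths. Within bands of width it had the opposite sign. Among peaks under 200 bp, ATOH1 lay on 6.44% [4.73 to 8.72] of the regions and 1.79% [1.26 to 2.53] of goblet peaks with ISC and ENT. Among peaks of 400 to 799 bp it lay on 24.3% [19.5 to 29.9] of the regions, 7.29% [6.72 to 7.90] of goblet peaks with ISC and ENT, 9.55% [8.34 to 10.9] of goblet peaks with neither and 0.771% [0.374 to 1.58] of the mirror class. Among peaks of 800 bp or more the shares were 47.2% [36.1 to 58.6], 25.6% [25.0 to 26.2], 19.8% [15.8 to 24.4] and 2.44% [0.833 to 6.93] in the same order. When every overlap, those of the rule included, had to cover at least 50% of a peak, ATOH1 lay on 5.65% of the 1309 peaks then chosen. Peaks with less than 50% of ENT then counted as without ENT, so not all of these are among the 1687 regions. The shares were 0.800% with ISC and ENT, 2.40% with neither and 0.543% in the mirror class. ATOH1 peaks had a median width of 186 bp, against 238 bp for the regions and 985 bp for goblet peaks with ISC and ENT. This requirement falls harder on wide peaks, so these shares do not compare the classes at equal width. With the rule applied to the upper 50% of every list by score, ATOH1 lay on 12.5% of the 814 peaks then chosen. It lay on 12.2% of goblet peaks with ISC and ENT. These 814 include peaks that overlap an ENT peak of the lower 50% and so lie outside the 1687 regions.

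**Figure D3:**
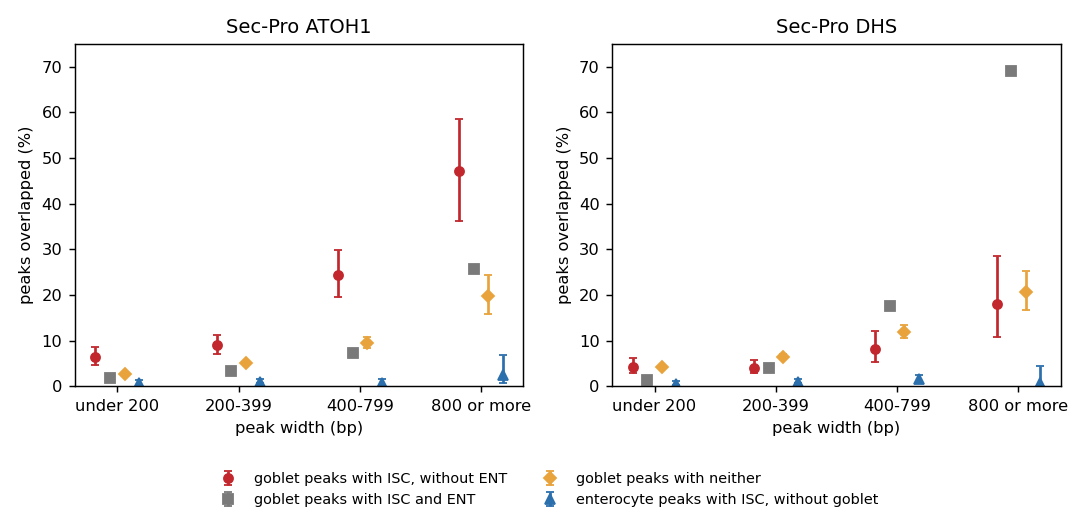
Share of peaks overlapped by an ATOH1 peak (left) or a Sec-Pro DHS (right) within 4 bands of peak width (x axis, bp). The y axis gives %, points are shares and bars Wilson 95% intervals. In each band the goblet regions with ISC and without ENT (red circles) have the highest ATOH1 share, up to 47.2% at 800 bp or more, whereas their DHS share there is 18.1% against 69.0% for goblet peaks with ISC and ENT.

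The ATOH1 peaks on the regions were strong within the ATOH1 list. The 217 ATOH1 peaks that touched the regions (1.42% of 15240) had a median score percentile of 77.1. The median was 53.9 for those on goblet peaks with ISC and ENT, 65.9 on goblet peaks with neither and 65.1 for the 41 on the mirror class. At 61 of the 204 regions with ATOH1 the strongest peak lay above the 90th percentile of the list. Of the 204 regions with ATOH1, 76.5% [70.2 to 81.8] had no DHS in either progenitor. The same held for 1191 of 5969 goblet peaks with ISC and ENT, 80.9% [78.3 to 83.3] of 942 with neither and 87.5% [73.9 to 94.5] of 40 in the mirror class, each with ATOH1. Of all regions, ATOH1 without a DHS in either progenitor was found at 156 regions (9.25% [7.96 to 10.7], against 3.24% of all goblet peaks), with DHS in both at 25 (1.48%, against 5.45%), in Sec-Pro alone at 7 (0.415%, against 0.150%) and in Ent-Pro alone at 16 (0.948%, against 0.615%). In goblet peaks with ISC and ENT, ATOH1 without DHS was found at 3.41%, and the regions minus this class came to 5.84 points [4.54 to 7.33]. These comparisons are over peaks of all widths. The class with ISC and ENT had a median width of 985 bp against 238 bp, and its DHS share rose with width. ATOH1 without DHS was not compared within bands of width. Of the 217 ATOH1 peaks themselves, 33 overlapped a Sec-Pro DHS and 40 an Ent-Pro DHS.

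Most regions with ATOH1 carried progenitor H3K4me2 in the 146-bp lists, as did most regions without it. DBZ-treated Sec-Pro H3K4me2 lay on 88.2% [83.1 to 92.0] of the 204 regions with ATOH1 and on 88.9% [87.2 to 90.4] of the 1483 without. Rbpj-/- Sec-Pro H3K4me2 lay on 34.8% [28.6 to 41.6] and 46.7% [44.1 to 49.2]. Ent-Pro H3K4me2 replicate 1, from cells that lack Atoh1, lay on 85.3% [79.8 to 89.5] and 83.0% [81.0 to 84.8], and replicate 2 on 40.7% [34.2 to 47.5] and 46.5% [44.0 to 49.1]. Sec-Pro H3K27ac lay on 50.0% [43.2 to 56.8] of regions with ATOH1 and 42.7% [40.2 to 45.2] of those without, and Ent-Pro H3K27ac on 61.8% [54.9 to 68.2] and 50.2% [47.6 to 52.7]. The regions with ATOH1 were wider, with a median of 388 bp against 229 bp. The part of width in these differences was not tested.

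ATOH1 peaks also lay near regions that they did not touch. Of the 1483 regions without an overlapping ATOH1 peak, 186 had one within 1 kb (12.5% [11.0 to 14.3]). The same share was 5.14% [4.89 to 5.40] in goblet peaks with ISC and ENT, 8.10% [7.72 to 8.50] in goblet peaks with neither, 3.99% [3.44 to 4.62] in the mirror class and 5.99% in all goblet peaks. For Sec-Pro DHS, 224 of the 1597 regions without an overlapping site had one within 1 kb (14.0% [12.4 to 15.8]), against 12.1%, 10.6%, 10.8% and 10.3% in the same order. With overlapping peaks included, an ATOH1 peak lay at or within 1 kb of 390 of the 1687 regions (23.1%). Regions away from enterocyte peaks had more ATOH1 and DHS than those beside them. Among the 868 regions more than 1 kb from an ENT peak, ATOH1 lay on 16.9% [14.6 to 19.6] and Ent-Pro DHS on 10.6% [8.72 to 12.8], against 6.96% [5.41 to 8.91] and 4.15% [2.99 to 5.75] of the 819 regions closer to one. Median widths of these groups were 264 and 221 bp. Other marks went the opposite way. In the same order, all 4 progenitor H3K4me2 libraries marked 25.0% and 38.3%. Sec-Pro H3K27ac lay on 38.4% and 49.1%, and Ent-Pro H3K27ac on 48.4% and 54.9%. This split was not made over other goblet peaks, so it is not shown to be particular to the regions.

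**Figure D4:**
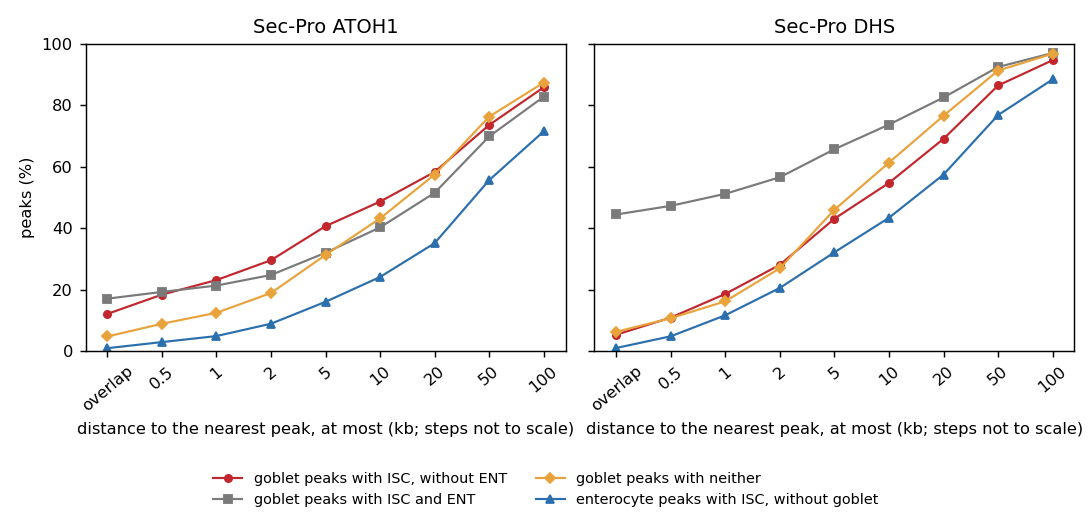
Cumulative share of peaks (y axis, %) with an ATOH1 peak (left) or Sec-Pro DHS (right) at or within a distance in kb (x axis, steps not to scale) for the 4 classes. ATOH1 lies at or within 1 kb of 23.1% of the goblet regions (red circles) and 4.89% of the enterocyte mirror class (blue triangles).

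Individual regions were named by the lower of their score percentiles in the goblet and stem cell lists, with 1-based mm9 positions, first over all regions and then within kinds of progenitor marking. Positions on chromosome 18 were counted and not named. Region 1, chr11:3305430-3306354 (925 bp, GOB percentile 76.4, ISC percentile 83.6), shared 878 bp with ISC and had H3K4me2 at percentiles of 89.7 and 99.1 in Rbpj-/- and DBZ-treated Sec-Pro and 98.9 and 86.7 in Ent-Pro replicates 1 and 2. H3K27ac was in both progenitors there, with no DHS or ATOH1, and the nearest enterocyte peak was 553 bp away. Region 2, chr7:80890472-80893919, was the widest of all the regions at 3448 bp and had every progenitor H3K4me2 and H3K27ac list with an ATOH1 peak at percentile 1.15. Region 3, chr11:119695074-119695928, likewise had these 6 lists and ATOH1, at percentile 37.2. Region 4, chr14:70222958-70223750, had the highest goblet percentile of the first 6 (81.1), H3K27ac in Ent-Pro alone and DHS in both progenitors. Regions 5 (chr9:105422335-105422625) and 6 (chr7:19598259-19598996) had no H3K27ac, and their stem cell peaks also reached an enterocyte peak, 430 and 120 bp from the regions. The 6 named regions with the highest ranks had H3K4me2 in 3 or 4 progenitor libraries each. Of all 1687 regions, 23.7% had it in 3 libraries and 31.5% in 4, against 8.53% and 49.7% of all goblet peaks.

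With ATOH1 and DHS in both progenitors, regions 7 (chr2:173132645-173133301) and 8 (chr7:28156858-28157491) carried ATOH1 peaks at percentiles of 93.3 and 90.5 and no H3K27ac. With DHS in Sec-Pro alone, region 9 (chr17:5622058-5623137) had a goblet score of 62.4, ATOH1 at percentile 23.9 and H3K27ac in Sec-Pro alone. Also with DHS in Sec-Pro alone, region 10 (chr12:110123174-110124180) had ATOH1 at percentile 99.8, an authors' score of 160. Its H3K4me2 percentile was 65.3 in DBZ-treated Sec-Pro, 8.98 in Rbpj-/- Sec-Pro and 9.24 in Ent-Pro replicate 1, and Ent-Pro replicate 2 had no peak. H3K27ac was found there in Ent-Pro alone, at percentile 15.2. Without DHS, region 11 (chr2:132814944-132816346) had ATOH1 at percentile 92.3 with H3K27ac in Sec-Pro alone, and lay 40409 bp from the nearest enterocyte peak. Region 12 (chr5:36732426-36733210) had ATOH1 at percentile 41.1 with H3K27ac in both progenitors. Regions 7 to 12 thus held ATOH1 peaks of higher and lower rank, both with and without a DHS in the same region. Whether the ATOH1 peaks of regions 7 to 10 themselves overlapped the DHS was not determined.

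H3K27ac in Sec-Pro alone marked regions 13 (chr13:55597120-55597616) and 14 (chr17:83765236-83765782), the second of which had H3K4me2 in both Sec-Pro libraries and in neither Ent-Pro library. H3K27ac in Ent-Pro alone marked regions 15 (chr19:53159144-53159414) and 16 (chr1:181316654-181317101), both with ATOH1, at percentiles of 77.3 and 9.80. Regions marked in both Sec-Pro libraries and in no Ent-Pro library were 17 (chr11:112924019-112924523) and 18 (chr3:30448223-30448642), at percentiles of 29.4 and 45.2 in the DBZ list. The opposite was found at regions 19 (chr10:59107919-59108285) and 20 (chr19:34287078-34287254), at percentiles of 45.7 and 47.1 in Ent-Pro replicate 1. Both of these had H3K27ac in both progenitors, region 20 at percentile 30.4 in Sec-Pro and 82.7 in Ent-Pro. No progenitor list had a peak at 42 regions (2.49% [1.85 to 3.35]), against 17.5% of all goblet peaks and 51.9% of goblet peaks with neither ISC nor ENT. The first of these were region 21 (chr16:30113096-30113393), which shared 3 bp with ISC, and region 22 (chr4:149261224-149261530), which shared 201 bp.

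**Figure D5:**
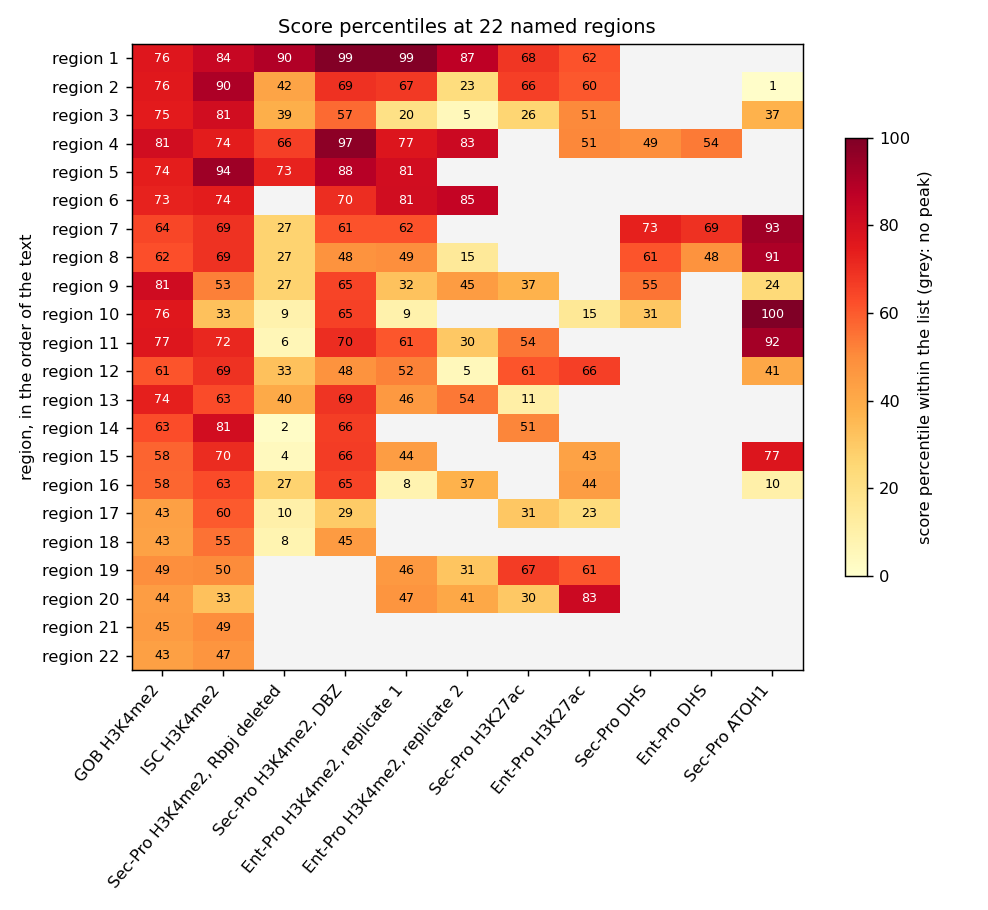
Score percentile (colour and number, 100 is the highest score of a list, grey is no peak) of 22 named regions (rows) in the GOB, ISC and 9 progenitor lists (columns). Regions 1 to 6 carry H3K4me2 in 3 or 4 progenitor libraries, regions 7 to 12 carry ATOH1, and regions 21 and 22 have no progenitor peak.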

How the data were processed

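The data are peak lists of 12 libraries, and 3 input samples were not analysed here. The deposited lists come without column names. Their 5 columns are chromosome, 0-based start, end, peak name and the authors' score, whose kind is not named and which served only to rank or describe peaks within a list. MACS2, Bowtie 0.12.7 and CASAVA 1.7 are named in the submitters' processing notes, with build mm9. Parameters, read numbers and the use of input are not stated there or in the labels. Each list came from 1 library.

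Overlaps of at least 1 bp were counted in Python 3.11.15 with NumPy 2.4.6, pandas 2.3.3 and SciPy 1.17.1. Figures were drawn with matplotlib 3.10.9. Counting was tested on simulated data, where 200 of 200 planted regions were found. The regions, comparison classes and rules were chosen with earlier results of these data known. Named regions were the first 6 by the lower of the goblet and stem cell score percentiles, then 2 for each of 8 kinds of progenitor marking. No genome or annotation of mm9 was at hand, so no gene, exon or sequence is given. Nothing in the labels says that replicates came from separate animals, so the permutation p-values refer to these libraries and not to animals. Each lineage had a 146-bp and a 200-bp list, and the Sec-Pro libraries also differed in preparation. In addition, the smallest possible p with 2 libraries per lineage is 0.333 in the exact permutation test. No values could therefore have given p below 0.05, and the test could not separate the lineages.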

Additional observations from a re-analysis of the deposited data

How the results depend on the processing

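The rule chose 814 peaks in the upper 50% of every list by score, 868 without an ENT peak within 1 kb and 837 after merging peaks within 1 kb, against 1687 as reported. The 814 are not a part of the 1687 regions, of which 339 lay in the upper 50% of the goblet list. ENT peaks of the lower 50% did not count there, so some of the 814 overlap one. The number stayed within 1.5 times of 1687 when 50% of a peak had to be covered, on autosomes and, chosen after seeing the data, for stem cell peaks clear of ENT. With the 50% overlap the rule chose 1309 peaks, whereas 959 of the 1687 regions were covered that far by ISC. The others of the 1309 overlapped ENT by less than 50% of their length. With the 50% overlap, Sec-Pro H3K27ac was 38.9%, Sec-Pro and Ent-Pro DHS 2.75% and 3.97% and ATOH1 5.65%. In the upper 50% by score, Sec-Pro and Ent-Pro H3K27ac were 37.3% and 45.0% and the DHS shares 7.74% and 10.3%. Without an ENT peak within 1 kb, H3K4me2 in both Sec-Pro and both Ent-Pro libraries was 37.2% and 39.7%, H3K27ac 38.4% and 48.4%, DHS 7.26% and 10.6%, and ATOH1 16.9%. With peaks merged, DHS were 8.84% and 12.4% and ATOH1 17.8%. For stem cell peaks clear of ENT, the shares in both Sec-Pro and both Ent-Pro libraries were 41.2% and 41.5%.

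Sec-Pro minus Ent-Pro H3K4me2 ran from -19.3 points without the DBZ-treated library to 24.3 points without the Rbpj-/- library. It was -16.2 points without Ent-Pro replicate 2 and 21.2 points without replicate 1, and -0.593 points in the 200-bp lists. A 146-bp and a 200-bp list are then weighed unequally by construction. Reading 1 library in place of both gave 45.2% to 88.9% in Sec-Pro and 45.8% to 83.3% in Ent-Pro. No paired analysis was possible because the labels number only the Ent-Pro libraries. With autosomes only, or the central 200 bp of ATOH1 peaks, no share moved beyond its interval. Read numbers are unknown, so depth sets an unknown limit on each absence. The causes of these shifts were not tested.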

Other observations

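The regions lay on all autosomes, at 108 of the 7216 goblet peaks of chromosome 11, the lowest share, and at 135 of the 5106 of chromosome 1 (2.64%), the highest. On chromosome X, 5 of 1206 goblet peaks (0.415%) were such regions, and on chromosome Y 0 of 26. Of the 1687 regions, 442 (26.2%) had another within 10 kb, and these formed 198 groups. The group with the most regions held 6 within 7655 bp at chr12:110119756-110127410, region 10 among them. All 6 had H3K4me2 in DBZ-treated Sec-Pro, 5 in Ent-Pro replicate 1, and 1 each in Rbpj-/- Sec-Pro and Ent-Pro replicate 2. H3K27ac covered 4 of them in Sec-Pro and 5 in Ent-Pro, and 3 had an ATOH1 peak. A group of 5 at chr11:3296134-3306354, which holds region 1, had H3K27ac in both progenitors at all 5 and neither DHS nor ATOH1. Another group of 5 at chr11:112910982-112924523, which holds region 17, had H3K4me2 at 5 in DBZ-treated Sec-Pro, 1 in Rbpj-/- Sec-Pro, 2 in Ent-Pro replicate 1 and 0 in replicate 2. These groups were picked after their values were seen, and neighbouring regions are not independent of each other. Neither the spacing of the regions nor the marks of the groups were compared with other goblet peaks.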
